A study of Mus musculus with 16 samples.

Results

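The complement system is a set of plasma proteins, surface regulators and receptors, and 32 of its genes, from the C1q chains to vitronectin, were chosen by name for this account. Of these, 30 had a row on the array annotated with 1 gene symbol, out of 19938 genes with such a row. C3 and Cfd had none and were not analysed here. Each of the 30 had 1 such row, so no choice between rows was needed.

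RNA from 16 mouse liver samples was hybridised to Affymetrix Mouse Gene 1.0 ST arrays, which read each transcript with probes along its length. The 2 groups were 7 Pdgf-c transgenic arrays and 9 wildtype arrays, all from C57BL/6 mice. PDGF-C, the growth factor of the transgene, acts on fibroblasts and hepatic stellate cells, and the series asked about liver stromal cells in tumour formation. The labels give no age, sex or promoter and do not tell if each sample was a separate animal, so the p-values cover only a spread between samples that may be technical. In the published line of this name an albumin promoter drives the transgene in hepatocytes. The cell type label reads stromal cells, but the protocol extracted total hepatic RNA, and the hepatocyte gene Alb averaged 13.54 ± 0.0366 in transgenic and 13.56 ± 0.0777 in wildtype arrays (log2 intensity, SD). The samples are therefore described as whole liver, where fewer cells of a type and less RNA per cell cannot be told apart.

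Complement is activated along 3 routes. C1q binds antibody or damaged surfaces and starts the classical route, mannose-binding lectins and ficolins bind sugars and start the lectin route, and factors B and D with properdin amplify the alternative route. All of them cleave C3 and C5 and end in the membrane attack complex. Hepatocytes make most of the plasma proteins, whereas C1q, properdin, ficolin A and the anaphylatoxin receptors come from macrophages and other myeloid cells, and C7 and the surface genes from stromal, vascular or many cells.

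Of the 30 genes, 9 were higher and 10 lower in the transgenic livers at an adjusted p of 0.05 (limma, Benjamini-Hochberg over all 35557 rows), and 11 were not called. The changes at least 1.5-fold in size were 7 rises, in C3ar1, Cd93, C7, C6, C1qb, C1qc and C1qa, and 2 falls, in Cfp and Cd55. Of all rows on the array, 18.9% were called, 10.6% higher and 8.26% lower, and 3.1% rose and 0.681% fell by at least 1.5-fold. Of rows above the median level, where 27 of the 30 genes lie, 31.1% were called. Of all 19938 genes taken by 1 row each, 23.2% were called. The members were called in 63.3% of cases. Their median difference was -0.05, beside -0.03 over all rows. The groups did not overlap in 6 members with transgenic arrays above wildtype and 8 below, beside 4.4% and 2.38% of all rows. With each array centred on its median, the calls over all rows split into 2873 higher and 4688 lower, against 3785 and 2936 as deposited, and those of the members into 9 higher and 14 lower.

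**Figure D1:**
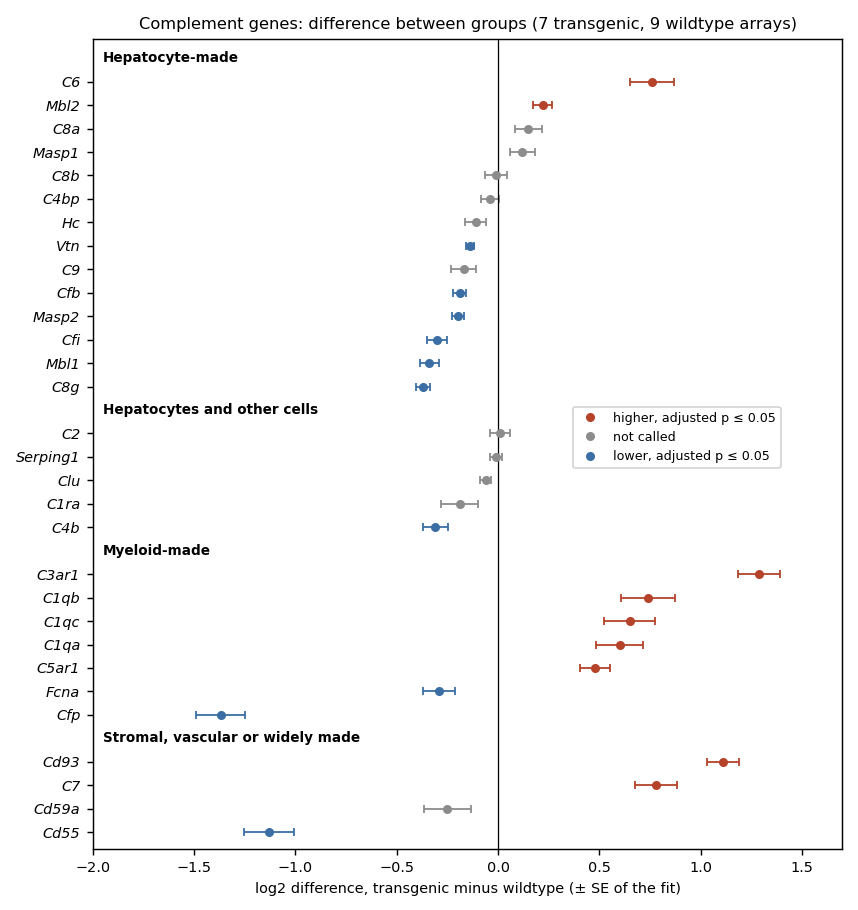
Log2 difference between the 7 transgenic and 9 wildtype arrays for the 30 measured complement genes, by the cells known to make them (points, fitted difference; bars, SE). Hepatocyte-made genes other than C6 lie between -0.37 and 0.22, while myeloid-made genes run from -1.37 for Cfp to 1.29 for C3ar1.

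The 3 chains of C1q, the recognition molecule of the classical route, rose by similar amounts. C1qa lay between 9.19 and 9.68 (median 9.33) in transgenic arrays, against 8.36 to 9.20 (median 8.73) in wildtype arrays. C1qb lay between 8.31 and 9.01 (median 8.55) in transgenic arrays, against 7.41 to 8.25 (median 7.84) in wildtype arrays. C1qc lay between 9.44 and 9.86 (median 9.56) in transgenic arrays, against 8.51 to 9.46 (median 8.87) in wildtype arrays. All 7 transgenic arrays exceeded every wildtype array for C1qb, and 6 of 7 did for C1qa and for C1qc. The rises were 1.52-fold for C1qa (log2 difference 0.60 ± 0.115, SE, adjusted p = 0.000931), 1.67-fold for C1qb (0.74 ± 0.135, adjusted p = 0.00055) and 1.57-fold for C1qc (0.65 ± 0.127, adjusted p = 0.00113), all from limma. The 3 genes are neighbours on mouse chromosome 4.

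Since C1qb and C1qc rose together, their promoter windows are shown, from 250 bases before to 50 after the start (RefSeq, GRCm38.p6), with those of C3ar1, a myeloid gene that rose, and Cfp, a myeloid gene that fell. Capitals mark AGGAAGT or its reverse complement, a motif that the macrophage factor PU.1 and other ETS factors are known to bind. The windows are chr4:136886151-136886450, chr4:136892865-136893164, chr6:122856108-122856407 and chrX:20931506-20931805, all on the minus strand.
C1qb: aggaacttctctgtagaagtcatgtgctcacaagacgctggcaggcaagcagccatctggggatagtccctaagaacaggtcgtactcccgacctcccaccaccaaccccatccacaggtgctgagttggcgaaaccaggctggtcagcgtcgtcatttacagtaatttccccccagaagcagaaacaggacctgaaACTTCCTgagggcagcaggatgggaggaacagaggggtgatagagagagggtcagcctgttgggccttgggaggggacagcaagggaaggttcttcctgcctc
C1qc: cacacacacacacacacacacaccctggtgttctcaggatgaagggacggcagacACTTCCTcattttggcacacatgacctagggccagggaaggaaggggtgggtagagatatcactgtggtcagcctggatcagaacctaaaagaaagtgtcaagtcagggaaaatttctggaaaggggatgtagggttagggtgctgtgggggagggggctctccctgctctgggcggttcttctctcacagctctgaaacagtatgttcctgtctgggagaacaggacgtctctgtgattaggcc
C3ar1: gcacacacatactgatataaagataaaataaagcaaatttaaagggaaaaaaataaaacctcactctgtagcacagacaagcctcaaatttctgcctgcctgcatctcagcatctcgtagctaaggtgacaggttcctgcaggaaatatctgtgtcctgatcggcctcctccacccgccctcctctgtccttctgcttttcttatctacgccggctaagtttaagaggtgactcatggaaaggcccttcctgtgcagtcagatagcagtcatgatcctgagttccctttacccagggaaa
Cfp: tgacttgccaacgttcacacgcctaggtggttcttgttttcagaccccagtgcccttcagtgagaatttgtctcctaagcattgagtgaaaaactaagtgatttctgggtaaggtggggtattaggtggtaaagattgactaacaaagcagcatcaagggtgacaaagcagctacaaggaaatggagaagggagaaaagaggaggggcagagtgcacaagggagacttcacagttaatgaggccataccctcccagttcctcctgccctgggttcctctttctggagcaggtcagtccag
The motif stands 53 bases before the start in C1qb and 195 bases before it in C1qc, in both on the strand opposite to the gene, and it is not in the C3ar1 and Cfp windows. It is in 9.35% of all 32851 promoter windows and in 5 of the 21 measured members with a window: C1qb, C1qc, C5ar1, Fcna and Masp2. Those 5 moved in both directions. Of 18 letter patterns searched on both strands, which partly overlap, this was chosen for display after its matches had been seen, and a match is only a description of the letters.

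In the lectin route Mbl1 and Mbl2, the mannose-binding lectins A and C of the mouse, went opposite ways. Mbl1 lay between 9.90 and 10.12 (median 10.00) in transgenic arrays, against 10.23 to 10.47 (median 10.38) in wildtype arrays, without overlap, and fell by 0.34 on the log2 scale (SE 0.0471, limma adjusted p = 3.36e-05). Mbl2 lay between 11.52 and 11.78 (median 11.64) in transgenic arrays, against 11.19 to 11.53 (median 11.43) in wildtype arrays, and was 1.16-fold higher (0.22 ± 0.0472, limma adjusted p = 0.00252). For Mbl2 that left 6 of 7 transgenic arrays above the highest wildtype array. The difference between Mbl1 and Mbl2 within each array averaged -1.64 ± 0.122 (SD, n = 7) in transgenic and -1.07 ± 0.169 (n = 9) in wildtype arrays, a shift of -0.56 (exact two-sided permutation test over arrays, p = 8.74e-05). This pair was chosen with earlier results of these data known.

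Fcna, the ficolin that macrophages make in the mouse, lay between 8.15 and 8.60 (median 8.30) in transgenic arrays, against 8.42 to 8.91 (median 8.65) in wildtype arrays. It fell by 0.29 (SE 0.0795, limma adjusted p = 0.0132), with 4 of 7 transgenic arrays below all wildtype arrays. Masp2, the lectin-route protease that cleaves C4 and C2, lay between 10.70 and 10.84 in transgenic arrays, against 10.87 to 11.04 in wildtype arrays, and fell by 0.20 (SE 0.0297, limma adjusted p = 8.45e-05). Masp1, which activates Masp2, stood at 9.36 ± 0.0943 in transgenic and 9.23 ± 0.145 in wildtype arrays (difference 0.12, interval of 95% -0.01 to 0.25, limma adjusted p = 0.199).

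Of C1ra, C2 and C4b, which act between C1q and C3 in the classical route, only C4b was called. C4b, which becomes part of the convertase, lay between 10.73 and 11.06 (median 10.85) in transgenic arrays, against 11.02 to 11.44 (median 11.15) in wildtype arrays, and fell by 0.31 (SE 0.0613, limma adjusted p = 0.0012). Its near-identical neighbour C4a, a row of its own, fell by 0.44 (SE 0.104, limma adjusted p = 0.0056), and how far each row also binds the other transcript was not tested. C1ra, the protease bound to C1q, averaged 7.52 ± 0.263 in transgenic and 7.71 ± 0.105 in wildtype arrays (limma adjusted p = 0.157). C2, the other convertase subunit, averaged 9.10 ± 0.0682 in transgenic and 9.09 ± 0.116 in wildtype arrays (difference 0.01, interval -0.10 to 0.12). The recognition chains of the classical route were thus higher, while none of C1ra, C2 and C4b was called higher.

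In the alternative route the sharpest fall among all members was that of Cfp, which encodes properdin, the plasma protein that stabilises the alternative C3 convertase. The transgenic arrays read 5.87, 6.49, 6.17, 6.24, 6.21, 6.33 and 5.89, with wildtype arrays from 7.20 to 7.96 (median 7.45). No transgenic array reached the lowest wildtype array, and the fall was 2.58-fold (-1.37 ± 0.12, limma adjusted p = 1.69e-07). Cfb, the protease subunit of that convertase, lay between 12.30 and 12.45 (median 12.35) in transgenic arrays, against 12.46 to 12.66 (median 12.55) in wildtype arrays. It fell by 0.19 (SE 0.0299, limma adjusted p = 0.000158), also without overlap.

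**Figure D2:**
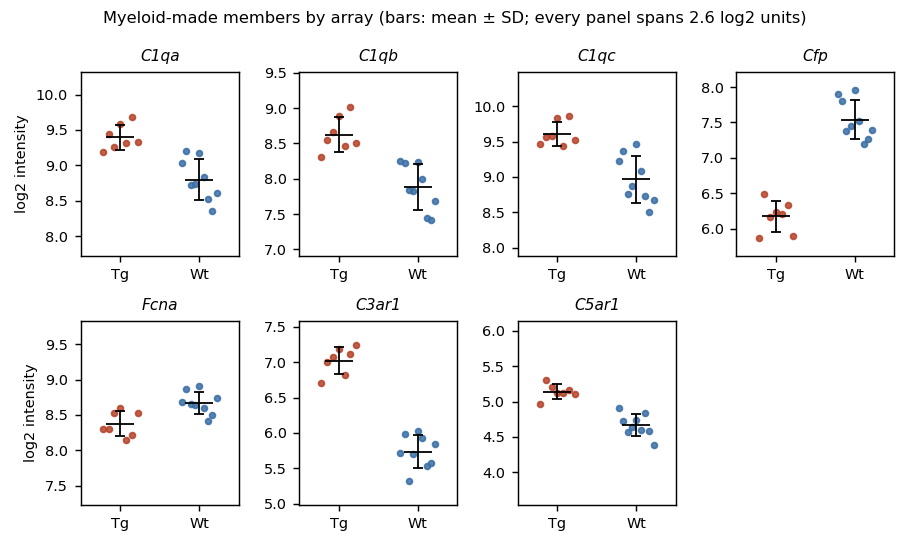
Log2 intensity of the 7 myeloid-made members in each transgenic (Tg) and wildtype (Wt) array (points, arrays; bars, mean ± SD). Transgenic arrays of C3ar1, C5ar1 and C1qb lie above all wildtype arrays and those of Cfp below them, with Fcna shifted down by 0.29.

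The terminal components, which assemble into the membrane attack complex, split. C6 lay between 11.10 and 11.34 (median 11.23) in transgenic arrays, against 9.89 to 10.85 (median 10.58) in wildtype arrays. The groups did not overlap, the wildtype arrays were spread more widely (SD 0.307, against 0.0909 in transgenic arrays), and the rise was 1.69-fold (0.76 ± 0.11, limma adjusted p = 5.91e-05). C7, its partner in the complex and a near neighbour on mouse chromosome 15, read 5.20, 5.19, 5.13, 4.68, 4.90, 5.52 and 5.16 in transgenic arrays, with wildtype arrays from 4.10 to 4.61 (median 4.35). These are low levels, the wildtype arrays all lying under the table's median of 5.25. Transgenic arrays were all above wildtype arrays, and C7 rose 1.72-fold (0.78 ± 0.103, limma adjusted p = 2.14e-05).

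The 3 subunits of C8 differed among themselves. C8g, the lipocalin-like gamma chain, lay between 11.38 and 11.53 (median 11.46) in transgenic arrays, against 11.71 to 11.95 (median 11.82) in wildtype arrays, and fell by 0.37 (SE 0.0333, limma adjusted p = 2.55e-07). C8a and C8b, the pore-forming chains, were not called, with differences of 0.15 (interval 0.01 to 0.29, limma adjusted p = 0.122) and -0.01 (interval -0.12 to 0.10, adjusted p = 0.938). Hc, which encodes C5, averaged 11.57 ± 0.0341 in transgenic and 11.68 ± 0.139 in wildtype arrays (limma adjusted p = 0.159). C9, the polymerising last component, averaged 10.70 ± 0.0894 in transgenic and 10.87 ± 0.158 in wildtype arrays (limma adjusted p = 0.0716). Whether either was called turned on single arrays. Without wildtype array 3 the limma adjusted p was 0.0141 for Hc (difference -0.15) and 0.00839 for C9 (-0.21). Without transgenic array 6 it was 0.0478 for C9 (-0.19). Wildtype array 3 was the lowest wildtype array of Hc (11.40) and C9 (10.55), and also of C6 (9.89) and C8a (10.91). The wildtype spreads of these genes are therefore not separate observations, and their cause was not tested.

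**Figure D3:**
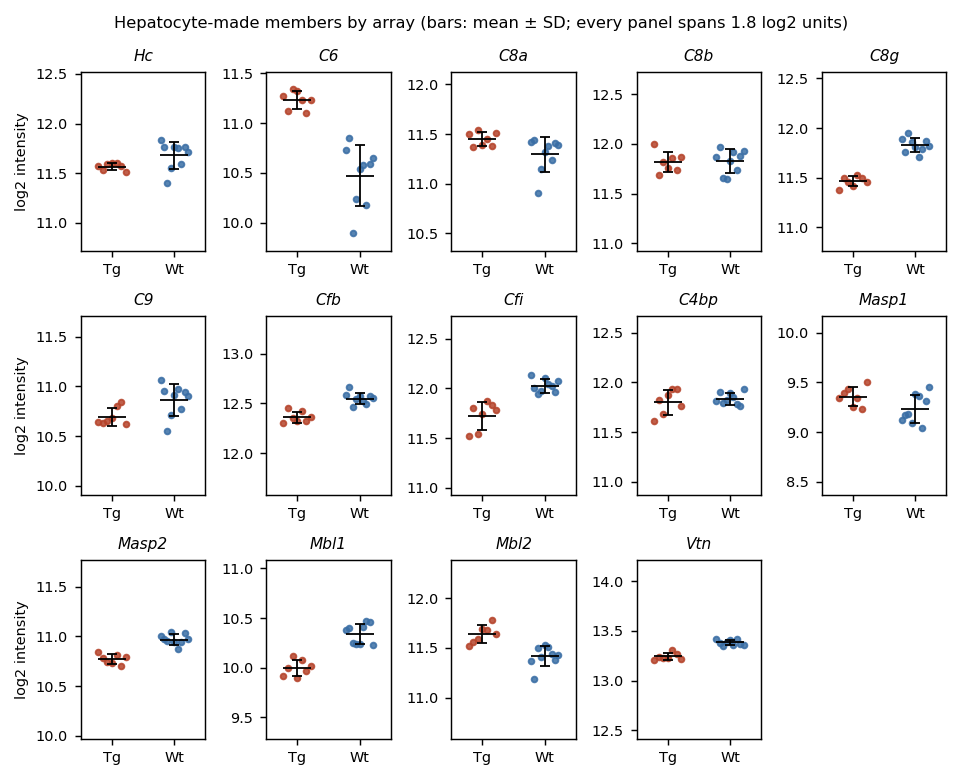
Log2 intensity of the 14 measured hepatocyte-made members in each transgenic (Tg) and wildtype (Wt) array (points, arrays; bars, mean ± SD). C6 shows the widest gap between groups, 0.76, and the falls of C8g, Mbl1 and Cfi stay within 0.37.

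The regulators in plasma were lower or not called. Cfi, the protease that inactivates C3b and C4b, lay between 11.52 and 11.87 (median 11.78) in transgenic arrays, against 11.94 to 12.14 (median 12.02) in wildtype arrays, and fell by 0.30 (SE 0.05, limma adjusted p = 0.000231). Vtn, vitronectin, which binds the forming attack complex, lay between 13.21 and 13.31 in transgenic arrays, against 13.35 to 13.42 in wildtype arrays, and fell by 0.14 (SE 0.0197, limma adjusted p = 5.11e-05). Neither gene's groups overlapped. C4bp, a cofactor of Cfi, averaged 11.80 ± 0.122 in transgenic and 11.84 ± 0.0608 in wildtype arrays. Serping1, the C1 inhibitor, averaged 12.04 ± 0.0606 in transgenic and 12.05 ± 0.0602 in wildtype arrays. Clu, clusterin, averaged 12.56 ± 0.0658 in transgenic and 12.62 ± 0.0345 in wildtype arrays. The limma adjusted p-values of these 3 genes were 0.632, 0.845 and 0.124, and their intervals lay within -0.13 and 0.06. Clu was called lower after quantile normalization (-0.11, limma adjusted p = 0.00553) and after centring (-0.11, adjusted p = 0.0303).

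On the cell surface, Cd55, the decay-accelerating factor that dissociates convertases, read 4.13, 4.15, 3.98, 4.14, 4.36, 4.19 and 4.48 in transgenic arrays, with wildtype arrays from 4.83 to 5.87 (median 5.39). All transgenic arrays were below all wildtype arrays, and Cd55 fell 2.19-fold (-1.13 ± 0.125, limma adjusted p = 2.86e-06). Averaged over both groups, Cd55 lies below the median level of the table. Cd59a, the surface inhibitor of the attack complex, averaged 8.65 ± 0.306 in transgenic and 8.89 ± 0.196 in wildtype arrays (difference -0.25, interval -0.49 to 0.00, limma adjusted p = 0.159).

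All 3 receptor genes among the members rose. C3ar1, the receptor of the anaphylatoxin C3a, lay between 6.71 and 7.25 (median 7.07) in transgenic arrays, against 5.32 to 6.03 (median 5.72) in wildtype arrays, and was 2.44-fold higher (1.29 ± 0.104, limma adjusted p = 5.94e-08). C5ar1, the receptor of C5a, lay between 4.97 and 5.30 (median 5.12) in transgenic arrays, against 4.38 to 4.91 (median 4.64) in wildtype arrays, and was 1.39-fold higher (0.48 ± 0.0741, limma adjusted p = 0.000123). Averaged over both groups, C5ar1 too lies below the median level of the table. Cd93, a surface lectin-like protein of endothelium and myeloid cells, once described as a C1q receptor, lay between 6.50 and 6.95 (median 6.67) in transgenic arrays, against 5.25 to 5.75 (median 5.65) in wildtype arrays. It rose 2.16-fold (1.11 ± 0.0786, limma adjusted p = 1.01e-08). No transgenic array of these 3 genes reached down to the highest wildtype array.

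**Figure D4:**
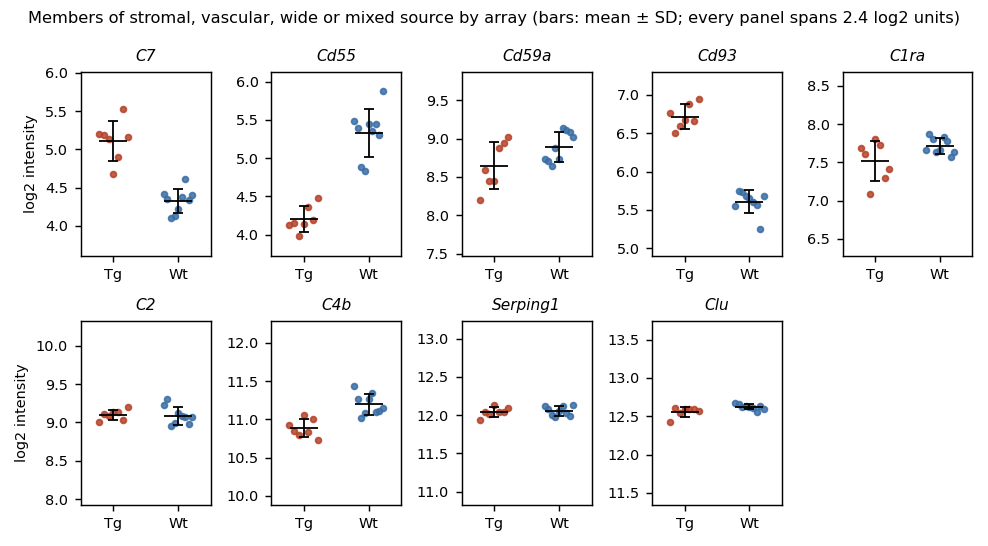
Log2 intensity of the 9 measured members of stromal, vascular, wide or mixed source in each transgenic (Tg) and wildtype (Wt) array (points, arrays; bars, mean ± SD). C7 and Cd93 are above and Cd55 below all wildtype arrays, while C2, Serping1 and Clu differ by at most 0.06.

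Set side by side by source, hepatocyte-made members other than C6 changed little and myeloid-made members more, in both directions. Of 14 hepatocyte-made genes 2 rose, 6 fell and 6 were not called, with a median difference of -0.12. Of 7 myeloid-made genes 5 rose, among them the neighbouring genes C1qa, C1qb and C1qc, and 2 fell, Cfp and Fcna. Their median of 0.60 was the value of C1qa. Of 4 stromal, vascular or widely made genes 2 rose and 1 fell, with a median of 0.27, and of 5 genes made by hepatocytes and other cells 1 fell, with a median of -0.06. In this order of classes 57.1%, 100%, 75% and 20% were called. Beside them stand 18.9% of all rows, 23.2% of all genes taken by 1 row each and 31.1% of rows above the median level. Taken array by array as the median over a class against each gene's wildtype mean, the hepatocyte-made class stood between -0.16 and -0.07 in transgenic arrays, against -0.09 to 0.07 in wildtype arrays. The myeloid-made class stood between 0.40 and 0.88 in transgenic arrays, against -0.27 to 0.35 in wildtype arrays. As a median over a class that holds all chains of C1q, it does not show the falls of Cfp and Fcna. The sources are textbook assignments, and the contrast between the classes is a description. Hepatocyte-made members lay at level percentiles 91 to 100 of the table and myeloid-made members at 43 to 91. The part of signal level in the contrast was not tested.

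Markers of the cells that make these proteins differed between the groups too, some in the direction of the members and some against it, and their part in the results was not tested. For the counts here and in the next paragraph, 10.6% of all rows were called higher and 8.26% lower. Of 9 hepatocyte markers 4 fell and 1 rose, and their summed log2 values were 115 to 116 in transgenic and 116 to 117 in wildtype arrays; Arg1 was at -0.29 and Ahsg at 0.00. No marker row had an intensity of 0, the lowest value of the table being 0.71. All 6 Kupffer cell markers fell, from Cd5l at -2.83 to Marco at -0.67, with summed values of 30.6 to 37.0 in transgenic and 43.1 to 48.7 in wildtype arrays. All 6 markers of monocytes and infiltrating macrophages rose, from Ms4a7 at 2.26 to Trem2 at 0.76, with sums of 38.8 to 41.7 in transgenic and 30.0 to 32.1 in wildtype arrays. Of 4 pan-macrophage markers 3 rose, Lyz1 by 1.23, and Adgre1 (0.26) was not called, with sums of 27.8 to 29.8 in transgenic and 25.1 to 28.3 in wildtype arrays. Of 6 neutrophil markers 5 rose, S100a8 by 2.99, and Ly6g (0.24) was not called, with sums of 30.1 to 37.2 in transgenic and 23.9 to 26.4 in wildtype arrays.

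Beside C7, Cd93 and Cd55, all 8 stellate cell and fibroblast markers rose, from Lum at 3.56 to Des at 1.01, with summed log2 values of 68.1 to 70.9 in transgenic and 50.4 to 55.6 in wildtype arrays. Of 5 pan-endothelial markers 4 rose, Cd34 by 3.14, and Cdh5 (-0.06) was not called, with sums of 32.7 to 35.1 in transgenic and 28.3 to 29.9 in wildtype arrays. Of 5 sinusoidal endothelial markers 4 fell, led by Clec4g at -2.27, and Lyve1 (-0.17) was not called, with sums of 31.8 to 35.2 in transgenic and 38.5 to 40.5 in wildtype arrays. B and T cell markers rose in 4 of 6 cases, with Cd3g at 0.83 and Cd3e at 0.08, and none of 4 cholangiocyte markers was called, with Krt7 at -0.05. Of 5 adipocyte markers Car3, which hepatocytes also express, fell by 0.39, and Adipoq (-0.04) lay below the 20th percentile of the table, 3.45, in both groups.

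Changes of members and of markers from the same kind of cell were compared within arrays, by exact two-sided permutation tests over the 16 arrays, adjusted over 5 pairs with Mbl1 and Mbl2 among them. Only the shift of each difference between groups is read. The pairs were chosen with earlier results of these data known, so small p-values were likely in advance and are no independent support. Fcna fell less than Clec4f, the C-type lectin of Kupffer cells: Fcna minus Clec4f was 1.01 to 2.50 in transgenic and -0.70 to -0.26 in wildtype arrays, a shift of 2.41. C7 rose less than Pdgfra, the stromal PDGF receptor gene: C7 minus Pdgfra was -4.12 to -3.11 in transgenic and -1.81 to -0.61 in wildtype arrays, a shift of -2.38. C7 lay at a low level, 4.10 to 4.61 in wildtype arrays, and the part of signal level in this shift was not tested. Cd93 rose more than the endothelial adhesion gene Pecam1, by 0.76. Of the other pan-endothelial markers, Cd34 (3.14) and Emcn (1.23) rose more than Cd93 (1.11), Vwf (0.45) rose less and Cdh5 (-0.06) was not called. These markers were not compared with Cd93 within arrays. For the 3 pairs of Fcna, C7 and Cd93 and for Mbl1 against Mbl2 the p was 8.74e-05, the smallest that 11440 arrangements can give. The adjusted p was 0.000109. C1qa rose by 0.22 more than Csf1r, the receptor gene of macrophages (1.40 ± 0.107 in transgenic and 1.17 ± 0.124 in wildtype arrays, exact permutation p = 0.00271, adjusted p = 0.00271). Of the other pan-macrophage markers, Lyz1 (1.23) rose more than C1qa (0.60), Cd68 (0.47) rose less and Adgre1 (0.26) was not called. All 6 markers of monocytes and infiltrating macrophages rose more than C1qa, by 0.76 to 2.26. These markers were not compared with C1qa within arrays.

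Of 28 further complement genes with a row, 5 rose, 12 fell and 11 were not called, with a median difference of -0.17. The called share was 60.7%, beside 18.9% of all rows and 23.2% of all genes taken by 1 row each. The other genes of the list were not analysed here. The steepest fall was that of Colec10, the collectin CL-L1 of the lectin route, which lay between 5.20 and 5.82 in transgenic arrays, against 7.25 to 7.90 in wildtype arrays (4.05-fold lower, limma adjusted p = 6.91e-10). Its partner Colec11, collectin CL-K1, with which it forms heteromers, moved the other way, between 8.77 and 8.97 in transgenic arrays, against 7.82 to 8.38 in wildtype arrays (1.72-fold higher, limma adjusted p = 2.75e-07). Both pairs of groups were apart, so the 2 collectins, like Mbl1 and Mbl2, were called in opposite directions.

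The receptors of the cleaved C3 fragment iC3b also went both ways. Vsig4, the complement receptor of resident Kupffer cells and also one of the Kupffer markers above, lay between 6.22 and 7.26 in transgenic arrays, against 7.48 to 8.59 in wildtype arrays, and fell by 1.00 (SE 0.172, limma adjusted p = 0.000321). The integrin chains of complement receptors 3 and 4 rose: Itgam by 1.04 (SE 0.107), Itgax by 0.90 (SE 0.0778) and their shared beta chain Itgb2 by 0.61 (SE 0.0836), with limma adjusted p-values of 1.25e-06, 1.31e-07 and 3.56e-05. None of these 4 genes had overlapping groups. Thbd, thrombomodulin, an endothelial cofactor that restrains clotting and complement and adjoins Cd93 on mouse chromosome 2, rose 1.94-fold (0.96 ± 0.133, limma adjusted p = 3.95e-05), with transgenic array values from 6.24 to 7.23 and wildtype values from 5.66 to 6.31.

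The remaining called genes fell by less than 1.5-fold. They were the protease-like C1rl (-0.33), C4a (-0.44), the membrane regulator Cr1l (-0.27), the carboxypeptidase N subunits Cpn1 (-0.26) and Cpn2 (-0.17), which trim anaphylatoxins, the C1q-binding proteins C1qbp (-0.17) and Calr (-0.16), the inhibitor Susd4 (-0.48) and the pentraxins Apcs (-0.33) and Crp (-0.27). The fall of Apcs had a limma adjusted p of 0.0474, and leaving out any of 13 arrays, among them transgenic array 3 (adjusted p = 0.109) and wildtype array 5 (0.0841), ended its call. After quantile normalization C1qbp (-0.13, limma adjusted p = 0.132), Cpn2 (-0.15, adjusted p = 0.0725) and Apcs (-0.29, adjusted p = 0.0829) were not called. C5ar2, the second C5a receptor, averaged 5.45 ± 0.223 in transgenic and 5.69 ± 0.164 in wildtype arrays (-0.25, limma adjusted p = 0.0816), beside the rise of C5ar1. It was called lower without wildtype array 7 (adjusted p = 0.049) or transgenic array 5 (0.0456). Cfhr3 (-0.27) was likewise called without wildtype array 4 (0.0382) or transgenic array 5 (0.0301), and Cd59b (-0.39) without transgenic array 7 (0.0445).

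**Figure D5:**
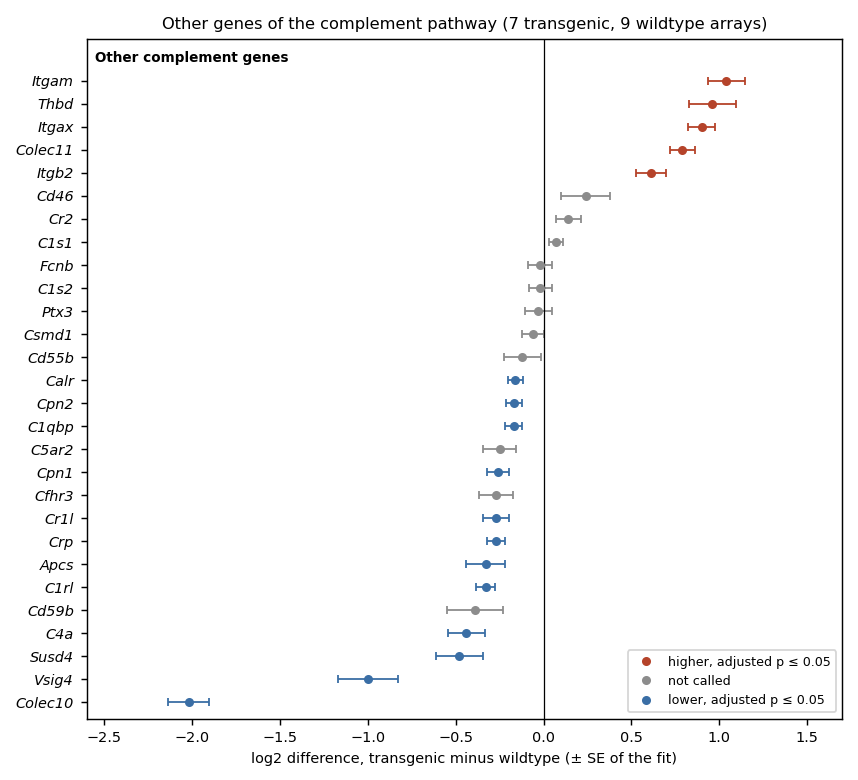
Log2 difference between the 7 transgenic and 9 wildtype arrays for 28 complement genes beyond the 30 above (points, fitted difference; bars, SE). Itgam, Thbd, Itgax, Colec11 and Itgb2 are higher, and Colec10 at -2.02, followed by Vsig4, leads the falls.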

How the data were processed

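Liver RNA of 7 transgenic and 9 wildtype samples was read on 1 array each. The authors deposited GCRMA values, per the submitters' processing notes, a method that subtracts background by probe sequence, normalizes arrays to each other and combines probes, and they were read here as log2 intensities. The version and the log base are not given in the sources used here, and the base was read from the range of 0.71 to 14.67. Of 35557 rows, 21789 had 1 gene symbol, 1621 several and 12147 were not listed in the probe table. Symbols were checked by Entrez identifier against GRCm38.p6, and 0 changed.

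All rows were fitted with limma 3.58.1 in R 4.3.3 (lmFit, eBayes with trend, two-sided), with no filter, and adjusted by Benjamini-Hochberg over all rows. Differences are transgenic minus wildtype, with intervals of 95%. The fit was tested on simulated data. Within-array differences used exact permutations in Python 3.11.15. A sixth pair, C4b against C3, was planned but not run, since C3 had no row. Alternatives were quantile normalization, median centring, other variance models, array weights, a level filter, a floor, a mean over rows, a replicate block and leaving arrays out. Members, gene lists and pairs were chosen with earlier results of these data known. The text names every member, the called genes among the other complement genes, and the largest called and smallest change of each marker list; other genes were named after their values were seen. Depth has no count here, and the number of arrays limits the precision. Column medians lay between 5.20 and 5.36, r within groups between 0.982 and 0.991, and the score of Y-linked genes minus Xist ranged over 0.663, with no array of the other sex apparent.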

Additional observations from a re-analysis of the deposited data

Results flagged for a closer look

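Of 60 combinations of a member and a group, 3 had an array whose gap to its nearest neighbour was large against the group's range by Dixon's criterion, where chance gives about 1 in 20. Mbl2 was lowest in wildtype array 2 at 11.19, with the next array at 11.37. Clu was lowest in transgenic array 1 at 12.42, with the next at 12.54. Cd93 was lowest in wildtype array 8 at 5.25, with the next at 5.55.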

How the results depend on the processing

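Of the 19 called members, 18 kept direction and call under all alternatives that measured them. Fcna lost its call with the replicate block (-0.31, adjusted p = 0.0654), as did Cpn2 (0.0665), Calr (0.0698) and Susd4 (0.109, and 0.0523 on the same arrays without it) among the other complement genes. No pairing by replicate number was seen over all rows. Deviations of same-numbered arrays correlated between -0.019 and 0.086, and 0 of 7 arrays correlated best with its own number. A pairing that acts on few rows could not be seen in this way. The block moved the calls to 3488 higher and 2234 lower rows (3776 and 2696 on the same arrays without it, an alternative chosen after seeing the data), and the shift of C1qa minus Csf1r to 0.18 (exact permutation adjusted p = 0.0625). Centring gave 4688 lower rows, and calls of Hc (-0.16), C9 (-0.22), C1ra (-0.25), Clu (-0.11), Cfhr3 (-0.32) and C5ar2 (-0.30). Quantile normalization gave 3583 higher and 3829 lower rows, and calls of Clu (-0.11), C1s1 (0.12), Cfhr3 (-0.33), Cd59b (-0.46) and C5ar2 (-0.31). Rows above the median level gave calls of C9 (-0.17), Cfhr3 (-0.27) and C5ar2 (-0.25). There 3 of the other complement genes were higher, since fewer genes were tested. Genes near 0 changed sign without a call. C8b stood at 0.01 with the block and on the same arrays without it, and at -0.04 to 0.01 without single arrays. C4bp stood at 0.01 without transgenic array 1 and wildtype array 9. C2 stood at -0.04 after centring, and at -0.01 with the block and on the same arrays without it. It ranged from -0.01 to 0.04 without single arrays. Serping1 stood at 0.00 with array weights and at 0.02 without transgenic array 1 and wildtype array 9. It ranged from -0.03 to 0.01 without single arrays. Without single arrays, C1s2 ranged from -0.06 to 0.01, Fcnb from -0.06 to 0.00 and Ptx3 from -0.06 to 0.02. The cause was not tested. C7, C5ar1 and Cd55 lay below the median level of the table, and detection calls were not analysed here.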
